A study of Mus musculus with 18 samples.

Results

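Livers of Old and Young male C57BL6 mice that ate a normal diet (ND) were compared to ask how the hepatic transcriptome differs with age in the absence of dietary metabolic stress. The comparison used every normal-diet library of the series and no other, that is 5 old ND and 4 young ND of 18 libraries, each made from poly(A) RNA of whole liver, and it covered the 13254 genes that passed a filter on low counts out of 24537 listed. Both groups had received the same chow, a Teklad Global diet with 18% protein (catalogue number 2018, Envigo), for 9 weeks according to the labels, whereas the methods of the study name another control diet. The labels call the mice Young or Old and give no age, genetic modification or drug treatment for either group. The high-fat diet (HFD) libraries, 4 old and 5 young, were used only to set the age difference of a gene in the other diet beside its value on ND. Per the methods, animals came from the National Institute on Aging colony, from breeding within the institute or from a commercial supplier, and which mouse came from which source was not given in the sources used here.

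The liver performs most of its metabolic work in hepatocytes, which differ along the lobule from the periportal inlet to the pericentral outlet, and it holds resident macrophages (Kupffer cells), sinusoidal endothelial cells, stellate cells and lymphocytes. With age, livers are known to accumulate immune cells and to present more antigen, while the male pattern of hepatic transcription, which depends on pulses of growth hormone, weakens. Interferons act on cells through transcription factors that bind short motifs near their target genes and raise the peptide-loading and antiviral machinery. In bulk RNA from whole liver, a change in the number of cells of a type and a change in the RNA per cell cannot be told apart.

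Total counts ranged from 20253719 to 26461664 in young ND and from 20373560 to 26406105 in old ND, and 79.3% to 81.0% of aligned tags were assigned to exons. Albumin transcripts alone took 5.26% to 6.18% of the counts in young ND and 6.53% to 8.84% in old ND. In a principal component analysis of log2 CPM (read counts relative to a library total scaled by the TMM method), component 1 carried 43.3% of the variance and placed the young ND libraries between -31.1 and -18.0 and the old ND libraries between 7.13 and 41.1. Component 2 carried 20.2% and set old ND replicate 5 apart, at -47.4, from the 8 other libraries at 3.90 to 12.0. That library also had the lowest summed level of the fatty acid synthesis genes, 9141 CPM against 21983 to 38476 CPM in the other old ND libraries, so the numbers of genes called over the whole table are given with and without it.

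**Figure D1:**
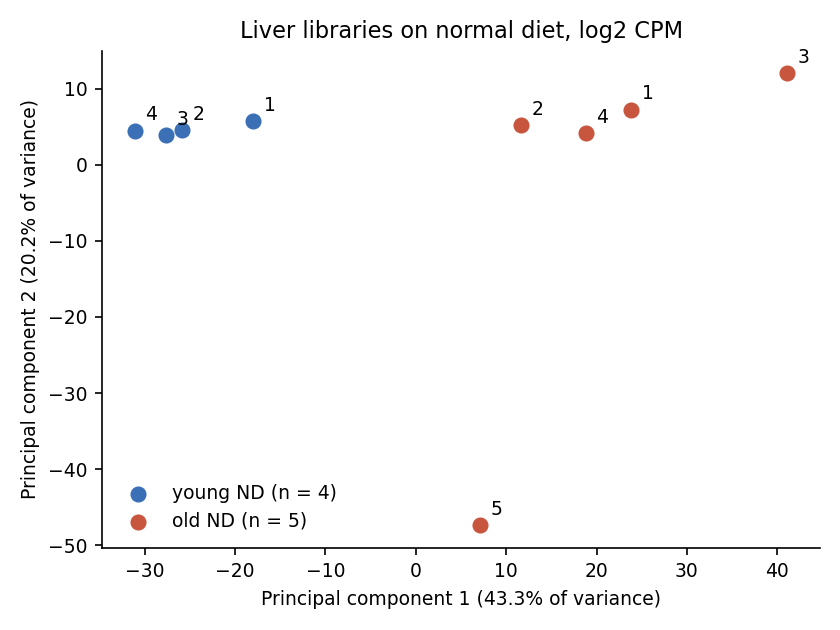
Principal components 1 and 2 of log2 CPM for the 9 normal-diet libraries, each point 1 library labelled with its replicate number, young ND in blue and old ND in red. The groups lie on either side of component 1, and old ND replicate 5 lies alone at -47.4 on component 2.

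With edgeR's quasi-likelihood test, 1421 genes differed between old ND and young ND at a Benjamini-Hochberg adjusted p under 0.05, which is 10.7% of the genes tested. Of these, 894 were higher in old ND (6.75% of genes tested) and 527 were lower (3.98%). The genes that rose were mostly weakly expressed, with a median level of 6.55 CPM and a median log2 fold change of 0.84, whereas the genes that fell had a median level of 45.5 CPM and a median log2 fold change of -0.42. At least 2-fold differences were called for 348 higher and 47 lower genes. The CPM values of the groups did not overlap for 2023 of the 13254 genes tested (15.3%) and for 1186 of the 1421 called. Without old ND replicate 5 the counts became 1595 higher and 1109 lower. Leaving out old ND replicate 1 gave 578 higher and 357 lower, without old ND replicate 3 they were 484 and 248, without young ND replicate 1 they were 621 and 280, without young ND replicate 2 they were 367 and 158, without young ND replicate 3 they were 379 and 203, and without young ND replicate 4 they were 279 and 159.

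**Figure D2:**
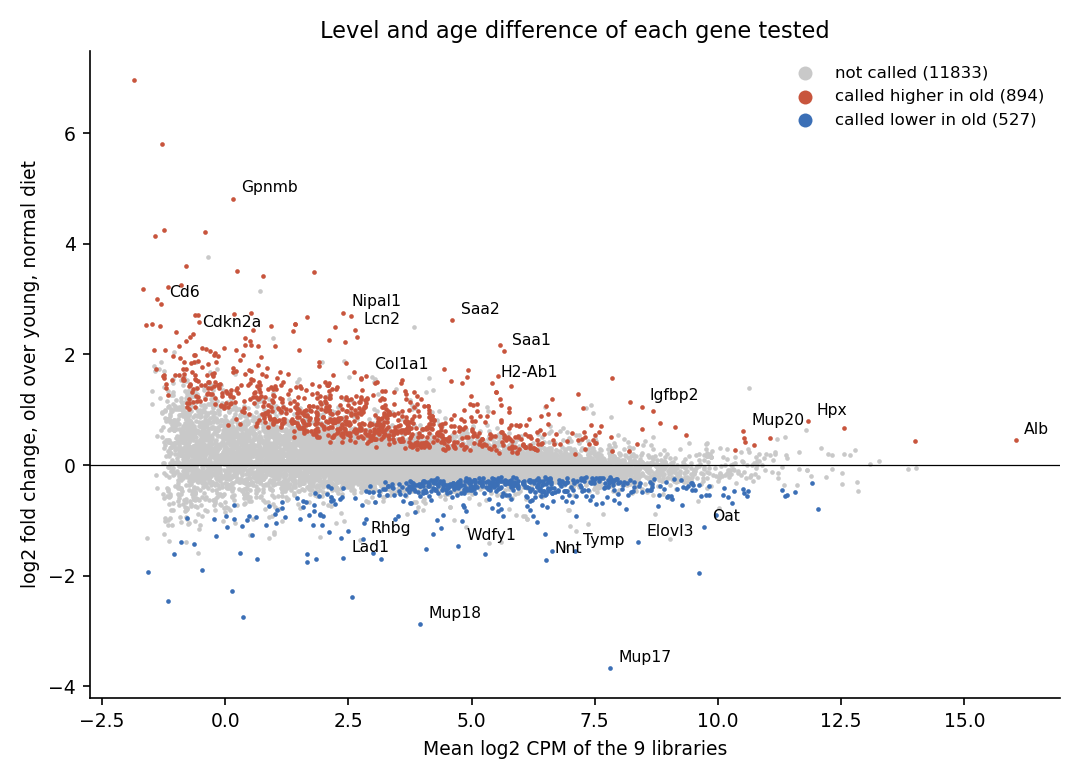
Mean log2 CPM of each gene tested over the 9 libraries (horizontal) against its log2 fold change of old over young on ND (vertical), with 894 genes called higher in red, 527 called lower in blue and the rest in grey. Called increases spread over weakly expressed genes such as Gpnmb and Cd6, and called decreases lie closer to 0 apart from genes such as Mup17, Mup18, Nnt and Wdfy1.

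The decreases with the smallest p-values were in Nnt and Wdfy1, genes whose level differs between C57BL/6 substrains. Nnt encodes the mitochondrial nicotinamide nucleotide transhydrogenase, and part of the gene is deleted in C57BL/6J but not in C57BL/6N mice. Nnt (chr13:119334317-119409011, mm10) measured 172, 190.5, 183 and 163 CPM in young ND and 50.5, 56.7, 47.2, 58 and 58.3 CPM in old ND. The highest old ND value, in replicate 5, lay far below the lowest young ND value, in replicate 4 (log2 fold change -1.71, SE 0.08, adjusted p = 1.3e-06). Wdfy1, which encodes an endosomal adaptor protein, measured 45.7, 48.4, 50 and 41.9 CPM in young ND and 16.4, 16.6, 16.6, 17.9 and 16.8 CPM in old ND, again with no overlap (log2 fold change -1.46, SE 0.07, adjusted p = 1.3e-06). The same differences were present on HFD, with log2 fold changes of -1.76 for Nnt and -1.49 for Wdfy1. Ide, the insulin-degrading enzyme, overlapped between the groups (log2 fold change -0.18, SE 0.14, adjusted p = 0.42), and Entpd4 had at most 1 count in any ND library, and all of its 31-base words (the stretches of 31 bases in its GENCODE vM21 transcripts) also occur in Entpd4b. Tymp, thymidine phosphorylase, fell with a similarly small error, from 259, 253, 269.9 and 218 CPM in young ND to 87, 96.8, 72.2, 82.3 and 86.2 CPM in old ND (log2 fold change -1.56, SE 0.09, adjusted p = 8.2e-06). Its neighbour Sco2, a cytochrome c oxidase assembly factor, fell as well (log2 fold change -1.25, SE 0.11, adjusted p = 0.0002), but the 2 genes overlap on chromosome 15 and share 41.2% of the 31-base words of Tymp and 66.2% of those of Sco2, so reads from the shared stretch cannot be assigned to 1 of them. A difference in the origin or substrain of the mice and a difference in age cannot be told apart in these libraries for any gene.

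**Figure D3:**
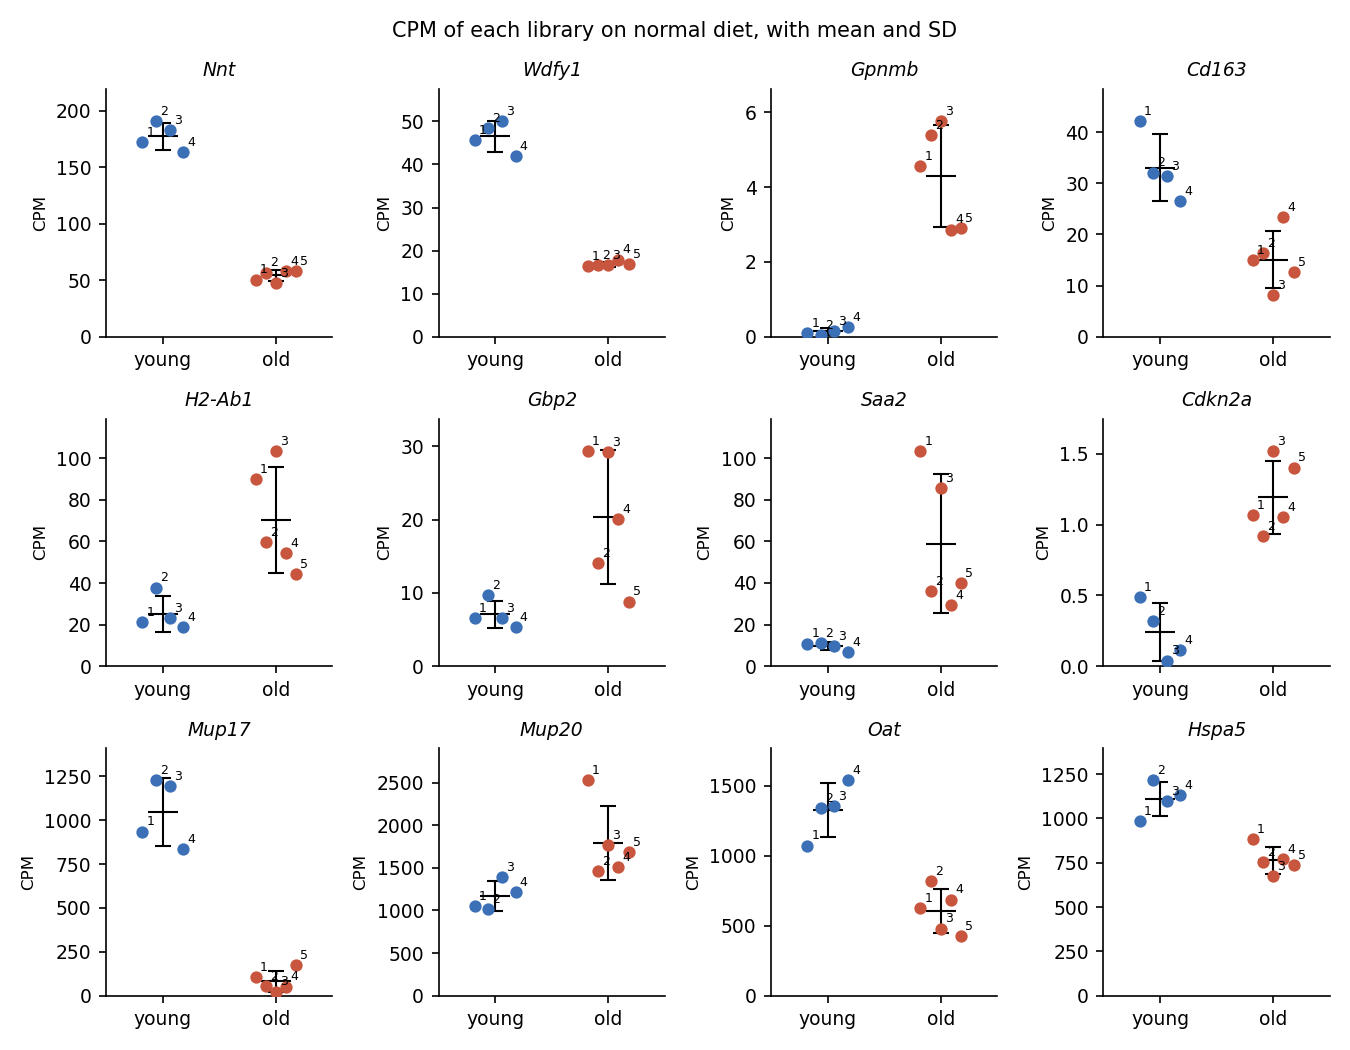
CPM of 12 genes in each ND library (numbered points), with the mean and SD of young ND (n = 4) and old ND (n = 5), every vertical axis starting at 0. Nnt, Wdfy1, Cd163, Mup17, Oat and Hspa5 are lower and Gpnmb, H2-Ab1, Saa2, Cdkn2a and Mup20 higher in old ND without overlap, whereas old ND replicate 5 lies within the young range for Gbp2.

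Macrophage genes were higher in old livers. Of 15 listed markers of monocytes and recruited macrophages, 14 were tested and all 14 rose, with a median log2 fold change of 1.49 against 0.0091 over all genes tested. Gpnmb, a membrane glycoprotein of lipid-associated macrophages, was near its detection limit in young livers, with 0.098, 0.0458, 0.154 and 0.265 CPM in young ND and 4.56, 5.38, 5.76, 2.86 and 2.89 CPM in old ND (chr6:49036518-49058182, mm10, log2 fold change 4.82, SE 0.40, adjusted p = 0.00019). Every old ND library lay far above every young ND library. With as little as 1 count in young ND, Gpnmb passed the filter on low counts through the old libraries, where it is high. Lyz2, the lysozyme of myeloid cells, measured 100.2, 56.2, 57.1 and 45.5 CPM in young ND and 158, 111, 172, 121 and 180.1 CPM in old ND (log2 fold change 1.20, SE 0.23, adjusted p = 0.014). Lyz2 was lowest in young ND replicate 4 and highest in old ND replicate 5, and 32.8% of its 31-base words also occur in Lyz1. Itgax, the integrin CD11c, rose from 0.906 ± 0.304 CPM in young ND to 4 ± 1.94 CPM in old ND (log2 fold change 2.15, SE 0.42, adjusted p = 0.012), and Mmp12, macrophage elastase, rose from 0.66 ± 0.146 CPM in young ND to 2.95 ± 0.831 CPM in old ND (log2 fold change 2.16, SE 0.25, adjusted p = 0.0015). Among the remainder, Trem2, a lipid receptor, and the chemokine receptors Ccr2 and Cx3cr1 rose by 1.44, 1.79 and 1.60 on the log2 scale, and Cd9, a tetraspanin, by 0.73. The summed level of the list was between 80.7 and 147 CPM in young ND and between 176 and 288 CPM in old ND, without overlap. Leaving out single libraries left between 6 and 14 of these genes called, and a filter of at least 10 counts in every library left 10.

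Kupffer cell markers rose less and not uniformly. Of 15 tested, 9 rose and 1 fell, with a median log2 fold change of 0.53. Adgre1, which encodes F4/80, measured 46.8, 30.2, 26.4 and 21.8 CPM in young ND and 62.5, 42.1, 84.5, 66.1 and 46.3 CPM in old ND (log2 fold change 0.95, SE 0.25, adjusted p = 0.04), the highest young ND library overlapping the lower old ND libraries. Cd5l, a secreted inhibitor of macrophage apoptosis, rose from 131 ± 23.9 CPM in young ND to 218 ± 52 CPM in old ND (log2 fold change 0.73, SE 0.18, adjusted p = 0.03), and the complement subunits C1qa, C1qb and C1qc rose by 0.73, 0.71 and 0.72 on the log2 scale. Slc40a1, the iron exporter ferroportin, rose by 0.26. Cd163, the haemoglobin scavenger receptor of resident macrophages, went the other way, with 42.1, 32.1, 31.4 and 26.5 CPM in young ND and 14.9, 16.3, 8.17, 23.4 and 12.6 CPM in old ND (log2 fold change -1.13, SE 0.25, adjusted p = 0.021). The old ND values of Cd163 were all below the lowest young ND value, but the call was lost in the fit to all 18 libraries (adjusted p = 0.08), with the replicate number as a block and without young ND replicate 1, 2 or 3. The block fit also leaves out old ND replicate 5, which has no young ND library of its number. The summed level of the list overlapped between groups, lying between 733 and 1052 CPM in young ND and between 970.3 and 1327 CPM in old ND, and the number of members called higher ranged from 0 to 10 when single libraries were left out.

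Lymphocyte transcripts were rare in all livers and more frequent in old ND. Of 20 T cell genes, 15 passed the filter on low counts and 4 rose, and Cd6, with as little as 1 count in a young ND library, passed it through the old libraries. Cd8a, a chain of the cytotoxic T cell co-receptor, measured 0.343, 0.641, 0.463 and 0.227 CPM in young ND and 1.16, 2.85, 2.64, 0.757 and 0.789 CPM in old ND (log2 fold change 1.98, SE 0.50, adjusted p = 0.031). Cd3g, a subunit of the T cell receptor complex, rose from 0.463 ± 0.205 CPM in young ND to 1.31 ± 0.643 CPM in old ND (log2 fold change 1.50, SE 0.40, adjusted p = 0.036), and Cd6, a T cell scavenger receptor, and Lck, the proximal kinase of the receptor, rose by 2.92 and 1.23 on the log2 scale. Zap70, a kinase of the same pathway with the highest level of the list, measured 8.13, 10.5, 10.5 and 10.3 CPM in young ND and 7.57, 10.8, 8.24, 10.5 and 10.1 CPM in old ND (log2 fold change -0.07, SE 0.13, adjusted p = 0.79), and Icos, a co-stimulatory receptor, had a value of 0.68 (adjusted p = 0.14). Of 17 genes of cytotoxic and natural killer lymphocytes 9 passed the filter and 5 rose, led by Ccl5, a chemokine of activated T cells, with 0.784, 0.916, 0.888 and 0.491 CPM in young ND and 3.25, 5.51, 8.91, 2.48 and 1.58 CPM in old ND (log2 fold change 2.51, SE 0.51, adjusted p = 0.015). Old ND replicate 3 was highest for Ccl5, and no old value reached down to the young range. Klrd1 and Ctsw rose by 2.09 and 1.89, and the transcription factor Tbx21 by 1.40, while the receptor Klrk1 had a value of 0.64 (adjusted p = 0.15). Klrd1 had as little as 1 count in a young ND library, and Klrd1 and Tbx21 no longer passed the filter without old ND replicate 5. Among 13 tested B and plasma cell genes, Jchain, the joining chain of polymeric immunoglobulin, Cd22 and Mzb1 rose. Jchain measured 3.33, 1.56, 2.08 and 1.13 CPM in young ND and 3.06, 12.9, 11.1, 21.7 and 7.63 CPM in old ND (log2 fold change 2.50, SE 0.54, adjusted p = 0.021), and old ND replicate 1 lay within the young range. Summed CPM was between 18.1 and 22.2 CPM in young ND and between 22.8 and 41.5 CPM in old ND for the T cell list, between 3.51 and 6.83 CPM in young ND and between 10.5 and 27.7 CPM in old ND for the cytotoxic list and between 14.2 and 21.1 CPM in young ND and between 22.3 and 55.6 CPM in old ND for the B cell list. The calls in these lists depended on single libraries, and between 0 and 4 T cell genes, 1 and 4 cytotoxic genes and 0 and 5 B cell genes passed when 1 library at a time was omitted. With a filter of at least 10 counts in every library, 1 T cell gene and 1 cytotoxic gene were called.

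Dendritic cell and neutrophil genes also rose in part. Of 12 dendritic cell genes tested, Ccl22, Batf3 and Irf8 rose (25%, against 6.75% of all genes tested), by 2.53, 1.12 and 0.91 on the log2 scale, with 8 called without old ND replicate 5 and 1 without young ND replicate 3. Ccl22 reached at most 17 counts in any library and 0 in young ND replicate 4, so it passed the filter through the old libraries. Wdfy4, next to Irf8 the most abundant of the list, had a value of 0.77 (adjusted p = 0.083). Of 14 neutrophil genes only 6 were tested, of which S100a9, a calcium-binding alarmin, and Il1b, a pyrogenic cytokine also made by macrophages, rose by 1.45 and 0.91. Neither neutrophil call was left in the fit to all 18 libraries, without old ND replicate 3 or without young ND replicate 2, 3 or 4. Ly6g, the defining neutrophil marker, was at 0 in all 9 libraries. Chemokine and cytokine genes rose in 9 of 19 tested, a count that lay between 3 and 10 when 1 library was left out, lowest without young ND replicate 4. Cxcl13, which attracts B cells, measured 6.22, 1.69, 2.01 and 0.831 CPM in young ND and 6.45, 8.04, 17.8, 17 and 11.7 CPM in old ND (log2 fold change 2.22, SE 0.54, adjusted p = 0.032), with old ND replicate 1 only just above young ND replicate 1. Tnf, the macrophage cytokine, and Tnfsf13b, the B cell survival factor BAFF, rose, by 1.53 and 1.53 on the log2 scale. Tnf and Tnfsf13b had at most 0.392 CPM and as little as 2 counts in young ND, so they passed the filter through the old libraries. Ccl9, a monocyte chemokine, rose from 36.1 ± 5.69 CPM in young ND to 62 ± 6.18 CPM in old ND (log2 fold change 0.78, SE 0.11, adjusted p = 0.0041). Cd207, which encodes langerin, rose from 3.30 ± 0.789 CPM in young ND to 10.5 ± 4.30 CPM in old ND (log2 fold change 1.68, SE 0.30, adjusted p = 0.0091).

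**Figure D4:**
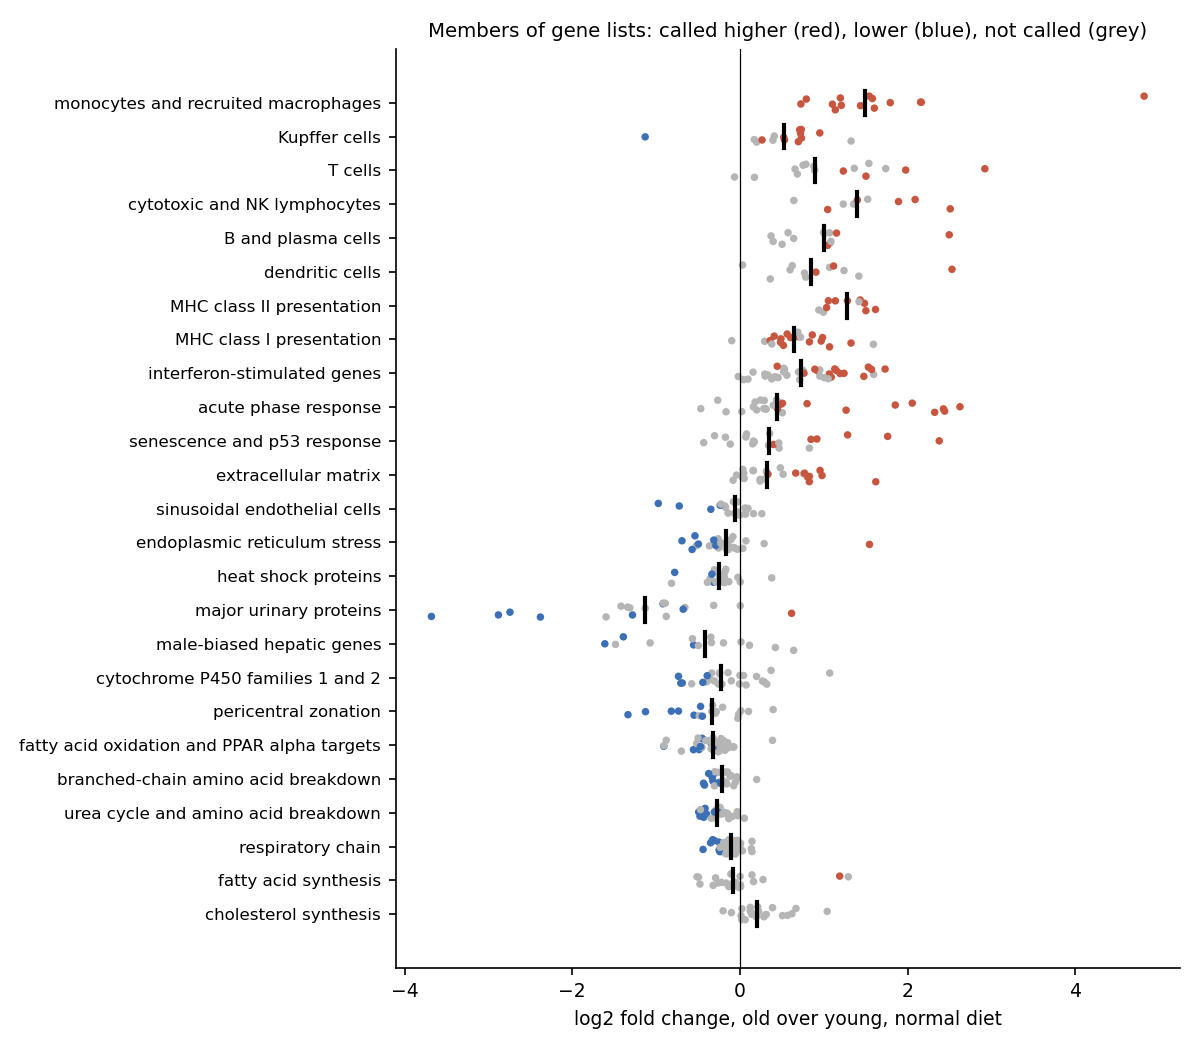
Log2 fold change of old over young on ND for the tested members of 25 gene lists, 1 point per gene, red where called higher, blue where called lower and grey where not called, with a black bar at the median of each list. Immune and antigen presentation lists lie to the right of 0, and the major urinary protein, pericentral and fatty acid oxidation lists lie to the left.

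Antigen presentation genes rose in old livers. MHC class II presents peptides of extracellular origin to helper T cells and is made mainly by macrophages, dendritic cells and B cells. Of 11 class II genes tested 8 rose, with a median log2 fold change of 1.28 and between 2 and 9 called without 1 library. H2-Ab1, the beta chain of I-A (chr17:34263227-34269418, mm10), measured 21, 37.8, 23 and 18.8 CPM in young ND and 90, 59.5, 104, 54.2 and 44.1 CPM in old ND (log2 fold change 1.48, SE 0.30, adjusted p = 0.016). Old ND replicates 1 and 3 were highest, and the smallest gap between the groups was that between young ND replicate 2 and old ND replicate 5. H2-Eb1 rose by 1.62, H2-Aa by 1.43, the invariant chain Cd74 by 1.28 and the class II transactivator Ciita by 1.50 on the log2 scale. The class II sum was between 180.0 and 303 CPM in young ND and between 366 and 816 CPM in old ND. The sums of the monocyte, T cell, cytotoxic and B cell lists above were also higher in old ND, but not in the same order of libraries. Old ND replicate 5 had the lowest class II sum of old ND, 366 CPM, and 261 CPM in the monocyte list, against 176 CPM in replicate 2. The part of these cells in the class II difference was not tested.

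MHC class I genes, which all nucleated cells use to display internal peptides, rose in 14 of 20 tested, with a median log2 fold change of 0.65 and between 8 and 17 called without 1 library. B2m, the light chain shared by class I molecules, measured 1256, 1314, 1267 and 1301 CPM in young ND and 1631, 1717, 1898, 1565 and 1711 CPM in old ND (log2 fold change 0.41, SE 0.08, adjusted p = 0.012). The groups were separated although the difference was only 1.33-fold. Psmb8, a catalytic subunit of the immunoproteasome, measured 24.9, 28.4, 22.6 and 19.3 CPM in young ND and 56.2, 38.3, 57.6, 39.7 and 43.4 CPM in old ND (log2 fold change 0.98, SE 0.15, adjusted p = 0.0057), and its partners Psmb9 and Psmb10 rose by 0.86 and 0.83. Among heavy chains, H2-K1 and H2-D1 rose by 0.48 and 0.69 and the non-classical H2-Q7 and H2-Q6 by 1.32 and 1.07, but 39.1% of the words of H2-Q7 and 50.3% of those of H2-Q6 occur in other genes. The peptide transporter subunit Tap2 and its chaperone Tapbp rose by 0.36 and 0.56. H2-Q10, a secreted class I molecule of hepatocytes, had a log2 fold change of -0.10 (adjusted p = 0.46).

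Interferon-stimulated genes rose in 14 of 38 tested, and 37 of the 38 fold changes were above 0, with a median of 0.73. Gbp2, a GTPase that attacks intracellular pathogens, measured 6.57, 9.71, 6.60 and 5.33 CPM in young ND and 29.4, 14, 29.2, 20.1 and 8.81 CPM in old ND (log2 fold change 1.53, SE 0.35, adjusted p = 0.026). Old ND replicate 5 was the lowest old library and lay within the young range. Zbp1, a sensor of left-handed nucleic acids, likewise had old ND replicate 5 within the young range, with 3.53, 5.36, 3.36 and 3.06 CPM in young ND and 14.9, 11.4, 14.6, 11.1 and 4.56 CPM in old ND (log2 fold change 1.57, SE 0.32, adjusted p = 0.015). Cxcl9, a T cell chemokine induced by interferon gamma, rose from 12 ± 2.40 CPM in young ND to 39.7 ± 20.8 CPM in old ND (log2 fold change 1.73, SE 0.42, adjusted p = 0.032), and Irf7, Ifi27, Bst2 and the GTPase Iigp1 rose by 1.09, 0.93, 0.44 and 0.76 on the log2 scale. The sum of the list was 1186, 1402, 1162 and 1003 CPM in young ND and 2243, 2055, 2241, 1822 and 1146 CPM in old ND. Without old ND replicate 5, 28 of the 38 genes were called higher, and leaving out other single libraries brought the count down to as few as 0.

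Promoter windows of RefSeq on GRCm38.p6, from 250 bases before to 50 bases after the start of a gene, were available for 10190 of the genes tested. The motif GAAANNGAA, read on both strands, is the core of interferon response elements. It was present in 7.44% of all windows, in 11.2% of the 687 windows of genes called higher and in 6.82% of the 425 windows of genes called lower. Of the 28 interferon-stimulated genes with a window, 22 held it, as did 4 of 16 class I genes and 1 of 8 class II genes. For the palindrome TTCNNNGAA, bound by factors downstream of cytokine and growth hormone receptors, the shares were 7.09%, 7.86% and 7.53%. For the E-box CACGTG, bound by clock factors, they were 10.2%, 8.01% and 8.24%. The letters of the 3 motifs can overlap in a window, and a match is a string of letters, not a measured binding site. The windows of 4 genes that rose are shown because they hold the interferon motif at different distances from the start, with the matching letters in capitals, written 5′ to 3′ on the strand of the gene. In Gbp2 the capitals are the motif read on the opposite strand.
Gbp2 (chr3:142620413-142620712, plus strand): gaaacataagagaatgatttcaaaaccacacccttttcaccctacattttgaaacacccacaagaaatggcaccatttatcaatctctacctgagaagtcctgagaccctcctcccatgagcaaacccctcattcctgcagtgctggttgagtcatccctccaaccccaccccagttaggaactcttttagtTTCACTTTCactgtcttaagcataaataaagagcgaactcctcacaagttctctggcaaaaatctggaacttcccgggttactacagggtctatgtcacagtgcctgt
Igtp (chr11:58199306-58199605, plus strand): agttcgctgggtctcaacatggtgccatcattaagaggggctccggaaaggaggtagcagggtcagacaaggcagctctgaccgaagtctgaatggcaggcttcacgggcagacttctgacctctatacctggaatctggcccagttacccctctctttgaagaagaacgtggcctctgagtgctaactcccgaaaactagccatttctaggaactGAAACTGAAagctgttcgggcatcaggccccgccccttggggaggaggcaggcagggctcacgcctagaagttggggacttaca
B2m (chr2:122147437-122147736, plus strand): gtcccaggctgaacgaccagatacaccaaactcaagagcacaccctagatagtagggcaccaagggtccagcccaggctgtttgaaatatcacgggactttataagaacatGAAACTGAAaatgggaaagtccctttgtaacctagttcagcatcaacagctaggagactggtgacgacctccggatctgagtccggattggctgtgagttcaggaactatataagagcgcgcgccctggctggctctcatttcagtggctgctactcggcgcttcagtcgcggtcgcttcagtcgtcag
Cxcl9 (chr5:92328030-92328329, minus strand): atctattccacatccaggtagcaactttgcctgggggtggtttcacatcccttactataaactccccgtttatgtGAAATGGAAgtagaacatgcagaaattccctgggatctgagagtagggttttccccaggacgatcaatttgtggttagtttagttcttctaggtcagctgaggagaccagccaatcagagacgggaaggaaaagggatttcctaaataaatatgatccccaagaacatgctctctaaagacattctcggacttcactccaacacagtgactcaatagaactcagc

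Counted from the start of each gene, the first base of the match lay 58 bases before the start in Gbp2, 34 in Igtp, 139 in B2m and 175 in Cxcl9. Igtp, an interferon-induced GTPase, measured 29.1, 43.3, 27.4 and 25.3 CPM in young ND and 96, 66.3, 70.6, 91.8 and 32.8 CPM in old ND (log2 fold change 1.19, SE 0.29, adjusted p = 0.032), and as for Gbp2 its lowest old library was replicate 5.

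Acute phase genes, which hepatocytes secrete during inflammation, rose in 11 of 27 tested with a median log2 fold change of 0.44. Saa2, serum amyloid A2, measured 10.9, 11.2, 9.46 and 6.84 CPM in young ND and 104, 36.1, 85.5, 29.4 and 40 CPM in old ND (log2 fold change 2.62, SE 0.42, adjusted p = 0.0091). The old ND livers spread over a wide range, and replicates 1 and 3 were highest. Saa1 followed the same order, with 23.4, 26.6, 29.9 and 19.3 CPM in young ND and 181, 61.9, 152, 45.7 and 74.6 CPM in old ND (log2 fold change 2.05, SE 0.42, adjusted p = 0.02), and 46.8% of its 31-base words occur in other genes, mostly in Saa2. Saa3, made by macrophages as well as hepatocytes, rose from 2.73 ± 0.436 CPM in young ND to 13.6 ± 5.97 CPM in old ND (log2 fold change 2.32, SE 0.35, adjusted p = 0.0061), and Lcn2, an iron-siderophore binding protein, rose from 2.64 ± 1.28 CPM in young ND to 14.1 ± 7.37 CPM in old ND (log2 fold change 2.44, SE 0.45, adjusted p = 0.012). The metal-binding proteins Mt1 and Mt2 rose by 1.85 and 2.43 on the log2 scale from low levels, Mt2 measuring 0.735, 1.83, 0.926 and 0.718 CPM in young ND and 6.30, 4.09, 6.16, 2.73 and 8.90 CPM in old ND. At the abundant end, Hpx, which clears free haem, measured 3233, 2762, 2687 and 2256 CPM in young ND and 6173, 3761, 5799, 3408 and 4665 CPM in old ND (log2 fold change 0.80, SE 0.18, adjusted p = 0.02), and Orm2 (34.1% of words shared with other genes), Itih4 and Apcs rose by 1.26, 0.49 and 0.45. Of 27 genes between 6 and 12 were called without 1 library, and 1 when the fit took the spread from all 18 libraries of both diets. C3, the central complement component, had a log2 fold change of 0.02 (adjusted p = 0.9).

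Alb, Trf and Apoa1, which encode abundant plasma proteins, were called higher in old livers, whereas other secreted products of hepatocytes described below, Mup17 and Lect2 among them, were lower. Alb, serum albumin, measured 61314, 56340.4, 57246 and 52619 CPM in young ND and 64478, 72785, 86710.2, 76229 and 88269 CPM in old ND (log2 fold change 0.45, SE 0.12, adjusted p = 0.032). Trf, transferrin, measured 14845, 14435, 14385 and 11678 CPM in young ND and 18144, 16811, 18831, 17505 and 22075 CPM in old ND (log2 fold change 0.43, SE 0.11, adjusted p = 0.033), and 63.8% of its words are shared with other genes, mostly a predicted gene. Apoa1, the main protein of high-density lipoprotein, rose from 4708 ± 499.9 CPM in young ND to 7501 ± 1428 CPM in old ND (log2 fold change 0.67, SE 0.14, adjusted p = 0.016), whereas Apob, the backbone of very-low-density lipoprotein, had a log2 fold change of 0.07 (adjusted p = 0.77). Across the 19 tested hepatocyte identity genes, 2 rose (Alb and Apoa1) and 1 fell, the pioneer factor Foxa1 (-0.43), with a median of 0.07. These are 10.5% and 5.26% of the list, near the 6.75% and 3.98% over all genes. The calls were lost in 5 of the fits without 1 library for Alb, 6 for Trf, 3 for Apoa1 and 5 for Foxa1, and Trf (adjusted p = 0.37) and Foxa1 were not called in the fit to all 18 libraries.

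Genes of senescence and the p53 response rose in 6 of 20 tested (30%, against 6.75% of all genes tested), with a median log2 fold change of 0.35. Leaving out 1 library gave between 2 calls (without old ND replicate 3 or young ND replicate 2 or 3) and 9 calls (without old ND replicate 5). Cdkn2a, which encodes the cell cycle inhibitors p16 and p19Arf, measured 0.49, 0.321, 0.0386 and 0.113 CPM in young ND and 1.07, 0.919, 1.52, 1.05 and 1.40 CPM in old ND (log2 fold change 2.38, SE 0.45, adjusted p = 0.011). It reached no more than 41 counts in any library and as little as 1 in young ND, so it passed the filter through the old libraries, and the old values lay above the young. The DNA damage genes Gadd45b and Gadd45a rose by 1.76 and 0.85 on the log2 scale. Mdm2 and Ccng1, direct p53 targets at higher levels, had log2 fold changes of -0.12 and -0.17 with adjusted p of 0.31 and 0.16. Of 23 tested cell cycle genes only Ccnd1, cyclin D1, rose (log2 fold change 0.71, SE 0.18, adjusted p = 0.03), which is 4.35% against 6.75% of all genes, and the count was 3 without old ND replicate 5 and 0 in the fit to all 18 libraries and without each of 5 other libraries.

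Matrix genes rose in 9 of 24 tested (37.5%, against 6.75% of all genes tested), and in 3 to 12 when 1 library was left out, the fewest without young ND replicate 3. Col1a1, the main chain of fibrillar type I collagen, measured 3.28, 4.85, 3.20 and 4.57 CPM in young ND and 13.1, 12.7, 19.2, 9.85 and 6.31 CPM in old ND (log2 fold change 1.62, SE 0.29, adjusted p = 0.0091), the lowest old value being that of replicate 5. Col1a2 rose by 0.98, Col3a1 by 0.80 and the type VI chains Col6a1, Col6a2 and Col6a3 by 0.83, 0.95 and 0.77 on the log2 scale. The abundant Col18a1, a basement membrane collagen of hepatocytes, had a log2 fold change of 0.04 (adjusted p = 0.83). In the fit to all 18 libraries 2 matrix genes were called. Of 16 stellate cell and fibroblast genes Tagln, Des and Lum rose, by 0.87, 0.69 and 0.66, with 1 to 5 called without 1 library. These are 18.8% of the list, against 6.75% of all genes tested. The sum of that list overlapped between the groups, lying between 449.5 and 492 CPM in young ND and between 407 and 589 CPM in old ND. Of 20 sinusoidal endothelial genes 4 fell, Ehd3, Tek, Wnt2 and Wnt9b, with log2 fold changes of -0.35, -0.24, -0.72 and -0.97, while the endothelial scavenger receptor Stab2 had a value of -0.17 (adjusted p = 0.15). None of the 4 was called in the fit to all 18 libraries, and as few as 1 when 1 library was left out. Wnt2 and Wnt9b are the ligands by which endothelial cells of the central vein maintain pericentral hepatocytes. Wnt2 measured 4.41, 4.44, 5.87 and 3.51 CPM in young ND and 2.72, 3.17, 2.30, 2.73 and 2.89 CPM in old ND (log2 fold change -0.72, SE 0.17, adjusted p = 0.021). Of 8 bile duct genes tested, edgeR called 0 at an adjusted p under 0.05, 1 had an unadjusted p under 0.05, DESeq2 called 1 and limma voom called 0.

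The major urinary proteins (Mup) are pheromone carriers that male mouse liver secretes in bulk under the control of growth hormone. Of 19 tested Mup genes 7 fell and 1 rose, with a median log2 fold change of -1.13. Without 1 library between 3 and 9 were called lower, 3 when young ND replicate 2 or 3 was left out, and the 1 call in the other direction was lost without old ND replicate 3 or any 1 of the 4 young ND libraries. Mup17 (chr4:61591931-61595832, mm10) measured 936, 1228, 1193 and 834 CPM in young ND and 105, 56.4, 22.9, 51.4 and 173 CPM in old ND (log2 fold change -3.68, SE 0.52, adjusted p = 0.0069), a 12.8-fold decrease. The highest old ND value of Mup17, in replicate 5, was far below the lowest young value. Mup18, Mup9 and Mup15 fell by 2.88, 2.38 and 2.74 on the log2 scale, Mup18 measuring 45.4, 53.1, 63.7 and 48.3 CPM in young ND and 11.5, 3.58, 2.30, 4.80 and 13.8 CPM in old ND. Mup20, also called darcin, was the exception, with 1055, 1011, 1391 and 1212 CPM in young ND and 2526, 1459, 1766, 1508 and 1679.9 CPM in old ND (log2 fold change 0.61, SE 0.16, adjusted p = 0.036). Mup3, the most abundant member by counts, at 7103, 8978, 9078 and 8141 CPM in young ND, overlapped between groups, since old ND replicate 5 stood at 9830 CPM above the 4 other old libraries at 5407 to 6417 CPM (log2 fold change -0.31, SE 0.17, adjusted p = 0.25), and without that library it was called (log2 fold change -0.48, adjusted p = 0.0066). The Mup sum was 11299, 14208, 14782 and 12132 CPM in young ND and 11142, 9094, 8116, 7343 and 13130.1 CPM in old ND. Mup genes are close copies of each other, and 86.2% of the 31-base words of Mup17, 93.1% of those of Mup18 and 64.5% of those of Mup20 occur in other genes, so counts of single members are uncertain. The likeness extends to their promoters, as the RefSeq windows of Mup17 and Mup18 show, which are 21 single-base edits apart over 300 bases.
Mup17 (chr4:61595783-61596082, minus strand): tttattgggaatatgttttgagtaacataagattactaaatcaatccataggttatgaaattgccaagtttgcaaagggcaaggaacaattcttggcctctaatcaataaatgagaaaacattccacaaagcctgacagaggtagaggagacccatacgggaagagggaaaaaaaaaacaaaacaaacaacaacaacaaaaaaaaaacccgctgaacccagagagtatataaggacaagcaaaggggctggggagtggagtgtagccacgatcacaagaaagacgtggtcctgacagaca
Mup18 (chr4:61674045-61674344, minus strand): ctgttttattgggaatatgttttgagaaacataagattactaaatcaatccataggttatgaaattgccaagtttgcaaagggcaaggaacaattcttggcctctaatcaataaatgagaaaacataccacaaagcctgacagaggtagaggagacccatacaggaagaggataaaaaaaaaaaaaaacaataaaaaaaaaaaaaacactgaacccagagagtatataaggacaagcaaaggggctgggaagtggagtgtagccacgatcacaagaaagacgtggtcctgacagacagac

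None of the 3 motifs searched was found in the windows of the 12 Mup genes that had one. Other genes of the male pattern fell in 3 of 14 tested, namely Elovl3, Cyp4a12b and Cyp2d9, with 1 to 4 called lower without 1 library. Elovl3, a fatty acid elongase, measured 651, 534, 674 and 449 CPM in young ND and 218, 212, 178, 252 and 239.8 CPM in old ND (log2 fold change -1.39, SE 0.13, adjusted p = 0.00066). No old ND value of Elovl3 reached the lowest young value. Cyp4a12b, a male-predominant fatty acid hydroxylase, fell from 76.5 ± 15 CPM in young ND to 25.1 ± 13 CPM in old ND (log2 fold change -1.61, SE 0.34, adjusted p = 0.02), with 62.9% of its words shared with Cyp4a12a. Cyp2d9, a steroid hydroxylase, fell from 1008 ± 111 CPM in young ND to 687 ± 110.2 CPM in old ND (log2 fold change -0.55, SE 0.13, adjusted p = 0.021). Of 23 listed female-biased genes 10 were tested, and only Lpl, lipoprotein lipase, rose (log2 fold change 1.09, SE 0.24, adjusted p = 0.022), which is 10.0% against 6.75% of all genes, with 0 to 2 called higher without 1 library.

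In the growth hormone and insulin-like growth factor axis, Igfbp2 rose, Socs2 rose and Ghr fell among 14 genes tested, 14.3% higher and 7.14% lower against 6.75% and 3.98% of all genes. Igfbp2, a circulating binding protein for insulin-like growth factors, measured 239, 212, 239.9 and 252 CPM in young ND and 487, 437, 598, 341 and 591 CPM in old ND (log2 fold change 1.06, SE 0.15, adjusted p = 0.004). Ghr, the growth hormone receptor, measured 758, 826, 802 and 833 CPM in young ND and 632, 712, 700.1, 626 and 539.5 CPM in old ND (log2 fold change -0.33, SE 0.09, adjusted p = 0.043). Socs2, a feedback inhibitor induced by growth hormone, measured 9.12, 7.28, 4.71 and 7.52 CPM in young ND and 16.5, 29.2, 26.7, 8.04 and 18.8 CPM in old ND (log2 fold change 1.48, SE 0.35, adjusted p = 0.027), old ND replicate 4 falling within the young range. Igfbp2 was called without any 1 library, whereas the call was lost in 4 such fits for Socs2 and in 7 for Ghr. The 13 genes of this axis with a window held TTCNNNGAA in 4 cases (30.8%), against 7.09% of all windows, 6 of 22 acute phase genes (27.3%) and 7 of 28 interferon-stimulated genes (25.0%).

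Drug-metabolising genes fell in part. Of 27 tested members of cytochrome P450 families 1 and 2, 5 fell, 9 without old ND replicate 5, 4 without most other single libraries and 3 in the fit to all 18 libraries. Cyp2c29, an abundant epoxygenase, measured 1465, 1632, 1668 and 1759 CPM in young ND and 864, 1161, 865, 1003 and 1168 CPM in old ND (log2 fold change -0.69, SE 0.11, adjusted p = 0.0069). Cyp1a2, which oxidises caffeine and aromatic amines, measured 495, 571, 699.9 and 595 CPM in young ND and 408, 424, 388, 276 and 279 CPM in old ND (log2 fold change -0.73, SE 0.15, adjusted p = 0.014), and Cyp2d40, Cyp2j5 and Cyp2j6 fell by 0.71, 0.44 and 0.39 on the log2 scale. Cyp2c29 and Cyp1a2 were not called in the fit to all 18 libraries (adjusted p = 0.15 and 0.084). Cyp2e1, the ethanol-inducible form, had a log2 fold change of -0.34 (adjusted p = 0.15), and log2 fold change -0.45, adjusted p = 0.013 without old ND replicate 5. Of 4 tested Cyp3a genes edgeR called 0 at an adjusted p under 0.05, although 3 had an unadjusted p under 0.05 and DESeq2 called 2 while limma voom called 0. Of 14 tested Cyp4 genes 2 rose and 2 fell (14.3% each, against 6.75% and 3.98% of all genes tested). Cyp4f18 and Cyp4f16, of the branch that hydroxylates leukotrienes, rose by 1.45 and 1.05 on the log2 scale. The number called lower was 4 without old ND replicate 5 and 0 without old ND replicate 3 or young ND replicate 2, 3 or 4. Glutathione transferases fell in 4 of 19 tested, Gstm2 by 0.72, Gstm6 by 0.53, Gstk1 by 0.42 and Gstz1 by 0.39. Leaving out 1 library gave between 0 calls, without young ND replicate 4, and 6. Of 18 antioxidant genes 1 rose and 1 fell (5.56% each, against 6.75% and 3.98% of all genes tested), and without old ND replicate 5 the number called lower was 5. Cat, catalase, fell from 4321 ± 300.1 CPM in young ND to 3468 ± 225 CPM in old ND (log2 fold change -0.32, SE 0.09, adjusted p = 0.04) and Hmox1, haem oxygenase, rose from 23.9 ± 3.32 CPM in young ND to 41.4 ± 8.25 CPM in old ND (log2 fold change 0.80, SE 0.16, adjusted p = 0.012).

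Pericentral genes, which beta-catenin signalling maintains around the central vein, fell in 7 of 18 tested, with a median log2 fold change of -0.33, and 10 fell without old ND replicate 5. Oat, ornithine aminotransferase (chr7:132557475-132576398, mm10), measured 1071, 1341, 1353 and 1539 CPM in young ND and 627, 818, 479, 686 and 427 CPM in old ND (log2 fold change -1.13, SE 0.18, adjusted p = 0.0063). The highest old ND library of Oat, replicate 2, lay below the lowest young ND library. Glul, glutamine synthetase, which detoxifies ammonia in the last hepatocytes before the vein, measured 1131, 918, 1157 and 1095 CPM in young ND and 812, 659, 745, 905 and 554 CPM in old ND (log2 fold change -0.55, SE 0.13, adjusted p = 0.027). Rhbg, an ammonium transporter of the same cells, measured 11.1, 11.2, 13.9 and 10.7 CPM in young ND and 6.16, 6.16, 4.16, 4.21 and 2.59 CPM in old ND (log2 fold change -1.34, SE 0.21, adjusted p = 0.0061), with 60.8% of its words shared with a predicted gene. Lect2, a secreted chemotactic factor, measured 94.1, 92.5, 109 and 102 CPM in young ND and 51.7, 67, 57.4, 55.5 and 50.4 CPM in old ND (log2 fold change -0.82, SE 0.09, adjusted p = 0.0012). Rgn, regucalcin, and Gulo, the last enzyme of ascorbate synthesis, fell by 0.47 and 0.45. The summed level of the pericentral list was between 12900.3 and 15580.2 CPM in young ND and between 9788 and 12567 CPM in old ND, without overlap. Among 17 periportal genes 2 rose, Alb and Hsd17b13 (0.39), and 2 fell, Etnppl, a phosphoethanolamine lyase (-0.64), and Sult5a1 (-0.85), and the median was -0.03. Each direction is 11.8% of the list, against 6.75% and 3.98% of all genes, with 0 to 4 called higher and 0 to 3 lower without 1 library, 4 and 1 of them without old ND replicate 5.

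Of 36 fatty acid oxidation genes 9 fell and 27 were not called, while 35 fold changes were below 0 and the median was -0.33. Fabp1, the liver fatty acid binding protein, measured 3385, 3308, 3342 and 2978 CPM in young ND and 1790.1, 2109, 2003, 2523 and 2643 CPM in old ND (log2 fold change -0.56, SE 0.12, adjusted p = 0.017). Acaa1b, a peroxisomal thiolase, fell from 1468 ± 194 CPM in young ND to 782 ± 279.9 CPM in old ND (log2 fold change -0.91, SE 0.23, adjusted p = 0.034), with 40.0% of its words shared with Acaa1a, and Cpt2, the inner carnitine palmitoyltransferase, fell by 0.45 on the log2 scale. Outside this list, Scp2, a peroxisomal sterol carrier, fell from 3311 ± 75.4 CPM in young ND to 2266 ± 214 CPM in old ND (log2 fold change -0.55, SE 0.09, adjusted p = 0.0069), and Car3, an abundant carbonic anhydrase, measured 5466, 5999, 5032 and 6441 CPM in young ND and 2921, 4372, 3249, 3476 and 2434 CPM in old ND (log2 fold change -0.80, SE 0.15, adjusted p = 0.01). Car3 was not called in the fit to all 18 libraries (adjusted p = 0.37). Between 0 members of the fatty acid oxidation list (without young ND replicate 2) and 16 (without old ND replicate 5) were called lower without 1 library, and 2 in the fit to all 18 libraries. The groups did not overlap for Fabp1, Scp2 or Car3.

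Genes of amino acid breakdown fell in part. In branched-chain amino acid breakdown 8 of 24 genes fell and 23 fold changes were below 0, with between 0 and 10 called without 1 library and 1 called in the fit to all 18 libraries. Mccc1, Pcca and Acat1, enzymes of leucine, propionate and isoleucine catabolism, fell by 0.44, 0.42 and 0.37 on the log2 scale. In the urea cycle and the breakdown of other amino acids 9 of 26 fell, among them Kmo and Kynu of tryptophan catabolism (-0.49 and -0.43), Hpd and Hgd of tyrosine catabolism (-0.48 and -0.40) and Slc25a15, the mitochondrial ornithine carrier (-0.45). Here 1 to 12 genes were called lower without 1 library, 1 when young ND replicate 2 or 4 was left out. Hpd measured 1632, 1986, 1850.3 and 2084 CPM in young ND and 1366, 1569, 1361, 1308 and 1176 CPM in old ND (log2 fold change -0.48, SE 0.10, adjusted p = 0.017). Cps1, the entry enzyme of the urea cycle, had a value of -0.15 (adjusted p = 0.49).

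Respiratory chain genes fell in 7 of 45 tested (15.6%, against 3.98% of all genes tested), with 39 of the 45 fold changes below 0 and a median of -0.11. The count was 23 without old ND replicate 5 and as low as 1 without young ND replicate 2 or 4. The sum of the list lay between 8628 and 8995 CPM in young ND and between 7364 and 9081 CPM in old ND, the values overlapping because old ND replicate 5 stood above every young library. Ndufa10, a subunit of complex I, measured 128, 140.2, 132 and 142 CPM in young ND and 103, 108, 99.1, 110.5 and 111 CPM in old ND (log2 fold change -0.35, SE 0.07, adjusted p = 0.01), and Ndufb3, Sdha and Cyc1 fell by 0.44, 0.33 and 0.31 on the log2 scale. For Ndufa10 all 5 old values lay between 99.1 and 111 CPM, below the lowest young value.

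Lipid synthesis genes ranged widely within both groups and gave few calls. Of 22 fatty acid synthesis genes only Scd2, a stearoyl-CoA desaturase isoform, rose (log2 fold change 1.19, SE 0.30, adjusted p = 0.032), 4.55% of the list against 6.75% of all genes, and the call was lost in 6 of the fits without 1 library. Scd1, the main hepatic desaturase, measured 24926, 14302, 10839 and 17215 CPM in young ND and 20772, 13989, 14321, 26492 and 4544 CPM in old ND (log2 fold change -0.07, SE 0.43, adjusted p = 0.94), and Fasn, fatty acid synthase, measured 2758, 1503, 1106 and 3197 CPM in young ND and 3201, 1597, 2227, 3106 and 612 CPM in old ND (log2 fold change 0.00, SE 0.48, adjusted p = 1). In both genes old ND replicate 5 was the lowest of the 9 libraries. Of 24 cholesterol synthesis genes edgeR called 0 at an adjusted p under 0.05, 4 had an unadjusted p under 0.05, DESeq2 called 1 and limma voom called 4. Without old ND replicate 5 edgeR called 9 higher, and it called 11 with the replicate number as a block, a fit that also leaves out that library. The fold changes of 22 of the 24 were above 0, with a median of 0.20. Among 26 genes of gluconeogenesis and glycolysis Hk2 and Pkm, hexokinase and pyruvate kinase forms that hepatocytes express little, rose by 1.12 and 0.73 on the log2 scale, which is 7.69% of the list against 6.75% of all genes tested. Bile acid genes gave 3 calls in 24, Hsd3b7, a synthesis enzyme, and the exporter Abcc3 falling by 0.42 and 0.41 and the exporter Abcc4 rising by 0.57, which is 8.33% lower and 4.17% higher against 3.98% and 6.75% of all genes. Hsd3b7 was called without any 1 library, whereas Abcc3 was lost in 6 such fits and Abcc4 in 7. Without old ND replicate 5 there were 4 lower and 2 higher. Of 19 circadian clock genes 1 fell and 1 rose (5.26% each, against 3.98% and 6.75% of all genes), Arntl, the activator BMAL1 (log2 fold change -0.57, SE 0.17, adjusted p = 0.049), and Nr1d2, a repressor of the same loop (log2 fold change 0.38, SE 0.10, adjusted p = 0.029). Arntl was no longer called in 7 of the alternative settings and in 7 of the fits without 1 library. Without old ND replicate 5, 3 clock genes fell and 2 rose, and with the replicate block, which also leaves out that library, 2 fell and 5 rose. The hour of collection was not given in the sources used here.

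Genes of endoplasmic reticulum stress, a list of chaperones, degradation factors and stress regulators, fell in 6 of 25 tested and rose in 1, with 3 to 6 called lower without 1 library. Hspa5, the chaperone BiP, measured 985, 1215, 1099 and 1133 CPM in young ND and 884, 754, 676, 769 and 735 CPM in old ND (log2 fold change -0.54, SE 0.10, adjusted p = 0.0086). Hyou1, its nucleotide exchange partner, measured 231, 282, 262 and 274 CPM in young ND and 208, 155, 137, 171 and 142 CPM in old ND (log2 fold change -0.69, SE 0.12, adjusted p = 0.0082), and Manf, a secreted stress protein, measured 79.9, 93.6, 78.9 and 96.3 CPM in young ND and 70.2, 53.5, 52.7, 56.6 and 60.5 CPM in old ND (log2 fold change -0.57, SE 0.10, adjusted p = 0.0083). For these 3 genes no old value reached the young range. Creld2, Sel1l and Dnajb11 fell by 0.50, 0.31 and 0.29 on the log2 scale. Hsp90b1, a chaperone of the same compartment with the highest mean level of the list by counts, had a log2 fold change of -0.14 (adjusted p = 0.28). Atf3, a stress-induced transcription factor in the same list, rose from 0.789 ± 0.183 CPM in young ND to 2.31 ± 0.754 CPM in old ND (log2 fold change 1.54, SE 0.27, adjusted p = 0.0085). Cytosolic and mitochondrial heat shock genes fell in 4 of 20, Hsph1 by 0.78, Stip1 by 0.34, Hspa4 by 0.32 and Hspd1 by 0.30, and 10 fell without old ND replicate 5 but as few as 0 without another library.

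In many lists 1 or both of the 2 most abundant members did not pass the test, and the log2 fold changes of such members are given with the adjusted p in parentheses. In the female-biased and antioxidant lists the more abundant of the 2, Lpl and Cat, did pass. Among secreted proteins, Serpina3k, an acute phase protease inhibitor, had a log2 fold change of -0.47 (adjusted p = 0.054). Serpina1e, a male-predominant antitrypsin with 54.2% of its words shared, had 0.64 (0.17). Igfbp4, a growth factor binding protein, had -0.08 (0.67). For drug and peroxide metabolism the values were 0.48 (0.087) in Cyp3a11, and 0.40 (0.15) in Cyp3a25 (45.9% of words shared). They were -0.25 (0.87) in Cyp4a14, -0.35 (0.077) in Cyp4v3, -0.36 (0.058) in Mgst1, -0.17 (0.48) in Gsta3 and -0.32 (0.22) in Gpx1. The 2 Cyp3a genes thus lay above 0 and the other 5 below, none past the threshold. In carbon and energy metabolism, Pck1, the gluconeogenic carboxykinase, had -0.01 (0.99). Aldh6a1, of valine breakdown, had -0.31 (0.079), and the ATP synthase subunits Atp5b and Atp5a1 -0.17 (0.14) and -0.19 (0.088). In lipid and bile acid metabolism, Sc5d of cholesterol synthesis had 0.22 (0.51). The bile acid ligase Slc27a5 and the uptake transporter Slco1b2 had -0.00 (0.99) and -0.28 (0.13). Acot4, a thioesterase, had -0.14 (0.76), and Apoa4 and the lipase Mgll -0.22 (0.46) and -0.39 (0.11). Fitm2, a lipid droplet protein, was the 1 gene of 15 called in the lipid droplet list (-0.53, adjusted p = 0.038). This is 6.67% lower against 3.98% of all genes tested, and the call was lost in 8 of the 9 fits without 1 library.

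Of the 2 most abundant markers of several other lists, those given here did not pass either, and the adjusted p again stands in parentheses. In the B cell and cell cycle lists the most abundant markers, Jchain and Ccnd1, did pass. Mrc1, the mannose receptor, had a log2 fold change of 0.06 (adjusted p = 0.66), and the matrix and stellate genes Dcn, Ecm1 and Col14a1 0.54 (0.06), -0.16 (0.46) and 0.03 (0.91). The bile duct gene Spp1 had -0.05 (0.86), and the chemokine Cxcl12 0.18 (0.18). Bank1, a B cell adaptor, and Csf3r, a neutrophil growth factor receptor, had higher values, 0.40 (0.28) and 0.92 (0.11), without passing. The clock genes Nr1d1 and Tef had 0.15 (0.44) and 0.41 (0.073). The heat shock protein Hsp90ab1 had -0.13 (0.33) and the replication clamp Pcna 0.12 (0.45).

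Several further genes were among the strongest changes at moderate levels. Nipal1, a magnesium transporter, measured 2.65, 2.29, 1.78 and 0.831 CPM in young ND and 8, 9.33, 15.9, 16.5 and 13 CPM in old ND (log2 fold change 2.76, SE 0.32, adjusted p = 0.0018). Enho, which encodes the secreted peptide adropin, measured 3.14, 1.60, 2.12 and 2.08 CPM in young ND and 15, 8.41, 22, 5.01 and 21.4 CPM in old ND (log2 fold change 2.69, SE 0.46, adjusted p = 0.0095), and Serpinb1a, an inhibitor of neutrophil proteases, measured 15.4, 18.5, 11 and 20.9 CPM in young ND and 35.5, 63, 36.5, 50.9 and 85.2 CPM in old ND (log2 fold change 1.72, SE 0.29, adjusted p = 0.0091). For these 3 genes the old values exceeded every young value, and within the old livers Enho was lowest in replicate 4. In the other direction Nat8f5, an N-acetyltransferase family member, measured 18.3, 16.7, 15.3 and 19.2 CPM in young ND and 4.85, 7.77, 4.05, 6.35 and 3.73 CPM in old ND (log2 fold change -1.70, SE 0.19, adjusted p = 0.0012), and Extl1, a heparan sulfate glycosyltransferase, and Ces2c, a carboxylesterase, fell by 1.60 and 1.52 on the log2 scale. Among genes named above, 50.1% of the words of Ces2c and of Hspd1, 54.8% of Hsd3b7, 55.1% of Mzb1, 34.8% of Cyp2d9, 34.7% of Pkm and 33.4% of Scp2 occur in other genes, which makes their counts uncertain.

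The age difference of each gene was also measured on HFD, in libraries separate from the ND groups that were counted without a strand option, so that only differences within a diet were compared. On HFD old livers exceeded young livers in 11.6% of 14275 genes and fell short in 6.51%. Of the 1421 genes called on ND, 760 were called in the same direction on HFD and 10 in the opposite direction. B2m, Psmb8, Lyz2 and H2-Ab1 had log2 fold changes of 0.61, 1.08, 1.10 and 1.38 on HFD, beside 0.41, 0.98, 1.20 and 1.48 on ND. The test of the difference itself, the interaction of age and diet, called 18 of 14275 genes (0.126%), 12 of which were also called for age on ND. Among the 18, Ncaph2 averaged 37.2 CPM in young ND and 132.7 CPM in young HFD, and Msmp 0.0755 and 8.20 CPM. A difference in counting between the diets need not cancel in the interaction, and its part in these calls was not tested. DESeq2 called the interaction for 195 genes, and the other alternatives for 16 to 18.

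Of these 12 interactions 8 were positive, the fold change of old over young being higher on HFD than on ND, and 4 were negative. The largest in size were in Rhbg, Lad1, Tspyl4, Grk5 and Ablim3, all lower in old livers on ND. Rhbg fell on ND as given above and measured 8.04 ± 1.74 CPM in young HFD and 15.7 ± 5.42 CPM in old HFD (log2 fold change 0.97, SE 0.23, adjusted p = 0.0083), and the age differences differed by 2.30 on the log2 scale, SE 0.34, adjusted p = 0.011. Lad1, a basement membrane anchoring protein, measured 8.97, 9.30, 8.15 and 14 CPM in young ND and 3.59, 3.95, 1.78, 3.62 and 2.89 CPM in old ND (log2 fold change -1.68, SE 0.23, adjusted p = 0.0032), against 5.68 ± 0.609 CPM in young HFD and 7.10 ± 2.14 CPM in old HFD (log2 fold change 0.33, SE 0.21, adjusted p = 0.33), a difference of 2.00 on the log2 scale, SE 0.31, adjusted p = 0.011. Tspyl4, a nucleosome assembly protein family member, measured 4.31, 5.50, 7.03 and 6.20 CPM in young ND and 4.03, 2.90, 3.45, 4.71 and 3.42 CPM in old ND, and its interaction was 1.58 on the log2 scale, SE 0.23, adjusted p = 0.011. Grk5, a kinase of G protein-coupled receptors, measured 10.7, 10.4, 14 and 7.29 CPM in young ND and 5.43, 4.87, 5.68, 5.97 and 3.81 CPM in old ND, with an interaction of 1.56 on the log2 scale, SE 0.28, adjusted p = 0.039. Ablim3, an actin-binding protein, fell from 38.6 ± 5.19 CPM in young ND to 28.3 ± 3.39 CPM in old ND and measured 17.8 ± 2.44 CPM in young HFD and 36.6 ± 9.35 CPM in old HFD, with an interaction of 1.49 on the log2 scale, SE 0.21, adjusted p = 0.011. On ND the groups did not overlap for Rhbg, Lad1, Grk5 or Ablim3. Ifi27 rose more on HFD (2.20) than on ND, with an interaction of 1.27 on the log2 scale, SE 0.24, adjusted p = 0.043. Manf, lower on ND, was higher in old livers on HFD (log2 fold change 0.41, SE 0.11, adjusted p = 0.013), with an interaction of 0.97 on the log2 scale, SE 0.15, adjusted p = 0.011, whereas for Hspa5 and Hyou1 the interaction did not pass (adjusted p = 0.064 and 0.053). Dtx4, a Deltex family ubiquitin ligase, had fold changes of -0.35 on ND and 0.39 on HFD on the log2 scale, with an interaction of 0.74 on the log2 scale, SE 0.14, adjusted p = 0.043.

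The 4 negative interactions were in genes that rose with age on ND. Inhba, an activin subunit, measured 14.2, 9.80, 11.5 and 14 CPM in young ND and 23.7, 24.9, 25.1, 19.7 and 24.8 CPM in old ND (log2 fold change 0.93, SE 0.12, adjusted p = 0.0027), against 13.3 ± 2.06 CPM in young HFD and 13 ± 1.87 CPM in old HFD (log2 fold change -0.04, SE 0.13, adjusted p = 0.88), with an interaction of -0.98 on the log2 scale, SE 0.19, adjusted p = 0.043. Pcdh17, a protocadherin, measured 3.72, 3.21, 2.74 and 2.87 CPM in young ND and 5.63, 4.92, 7.46, 5.51 and 6.05 CPM in old ND (log2 fold change 0.92, SE 0.15, adjusted p = 0.0075), and its fold change on HFD was -0.27, with an interaction of -1.19 on the log2 scale, SE 0.20, adjusted p = 0.021. No old ND value of these 2 genes reached down to the young range. Rnf145, a ubiquitin ligase, had fold changes of 0.68 on ND and -0.14 on HFD (interaction -0.82 on the log2 scale, SE 0.15, adjusted p = 0.043). Atp1b1, a subunit of the sodium pump, had fold changes of 0.31 on ND and -0.43 on HFD (interaction -0.74 on the log2 scale, SE 0.12, adjusted p = 0.011), and it was called for age on both diets in opposite directions. Alb, Mup17 and Oat, whose fold changes on the diets were 0.45 and -0.49, -3.68 and -1.29, and -1.13 and 0.20, also did not pass (adjusted p = 0.064, 0.23 and 0.25).

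**Figure D5:**
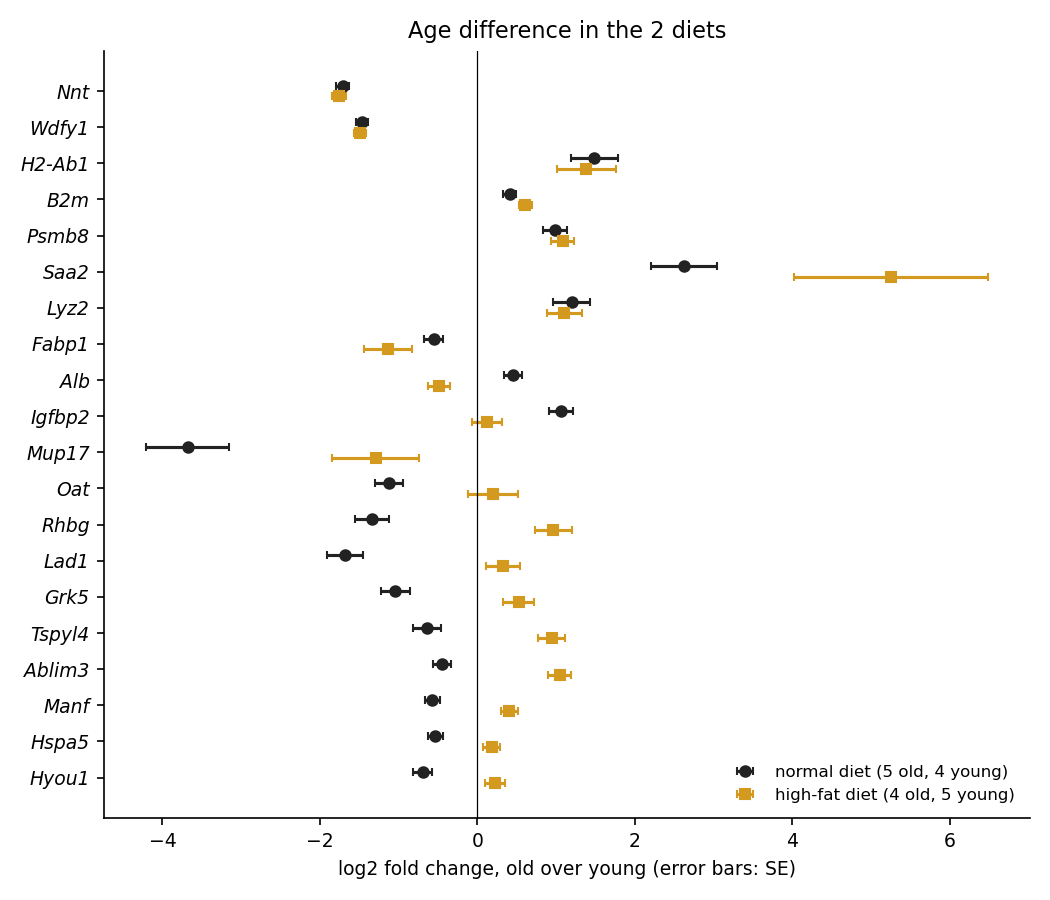
Log2 fold change of old over young livers with its SE for 20 genes on ND (black circles, 5 old and 4 young) and on HFD (yellow squares, 4 old and 5 young). Nnt, Wdfy1, B2m and Psmb8 lie on the same side of 0 on both diets, and Rhbg, Lad1, Grk5, Tspyl4, Ablim3 and Manf lie on opposite sides of 0.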

How the data were processed

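RNA-seq counts of whole mouse liver were used, 5 old ND and 4 young ND libraries, called replicates by the labels. The labels do not say that each came from a separate mouse, so p-values measure only the spread between these libraries. The deposited values are raw read counts per gene and library. Per the file headers the authors counted reads over exons with HOMER (mm10, condensed to 1 entry per gene, the ND table with the plus-strand option and the HFD table without a strand option), whereas the methods name HTSeq, and STAR was the aligner. No column was left unmapped.

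Genes with low counts were removed with filterByExpr, libraries were scaled by TMM, and old and young ND were compared with edgeR's quasi-likelihood test (edgeR 4.0.16, R 4.3.3, robust estimation) and Benjamini-Hochberg adjustment over all genes tested. Printed CPM use TMM-scaled library sizes, log2 CPM a prior count of 2, and the SE is the log2 fold change divided by the square root of F. The age difference on HFD and the interaction came from a fit to all 18 libraries. DESeq2 1.42.0, limma 3.58.1 (voom with quality weights), other scalings, filters and the omission of each library were alternatives, and leaving the Mup genes out before scaling was chosen after seeing the data. The scripts were tested on simulated data. Figures used matplotlib 3.10.9. The lowest total count of an ND library was 20253719, so genes near 1 CPM rest on few counts and can pass the filter through the group where they are higher.

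The genes and the 43 gene lists were chosen with earlier results of these data known, so no list is independent evidence. Genes were named by a rule: the 12 highest and 12 lowest log2 fold changes among called genes without overlap whose average log2 CPM reached 2, the 8 called genes of highest level, up to 3 called members of largest change and 2 of highest level in each list, the substrain markers and 5 interactions. A further 45 genes (Sco2 and other members of the lists) were chosen after their values were seen, and predicted genes other than Gm15401 were left unnamed. Some genes that the rule names are not reported here.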

Additional observations from a re-analysis of the deposited data

Results flagged for a closer look

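A library far from the others of its group was seen in 29 of 552 sets of values tested with Dixon's criterion (5.25%), and chance alone gives about 1 in 20. Old ND replicate 3 was high for Atf3 (3.602 CPM), Cd22 (9.209 CPM), Cd3g (2.414 CPM), S100a9 (4.01 CPM) and the summed cytotoxic and natural killer genes (27.66 CPM). Young ND replicate 1 was low for Cat (3876 CPM), Hspd1 (236.4 CPM), Cps1 (5437 CPM), Cyp2j5 (801.6 CPM) and the summed urea cycle and amino acid genes (20431 CPM), and high for Lcn2 (4.557 CPM) and Gm15401 (3.773 CPM). Young ND replicate 2 was high for Cd74 (124.2 CPM) and H2-Aa (47.67 CPM) and low for Itih4 (1724 CPM) and the summed bile duct genes (61.73 CPM). Old ND replicate 1 was high for Mup20 (2526 CPM) and Sult5a1 (16.15 CPM), and old ND replicate 5 was high for Mup3 (9830 CPM) and low for Col18a1 (1013 CPM). Single libraries also stood apart for Rhbg (13.86 CPM, young ND replicate 3, high), Trf (11678 CPM, young ND replicate 4, low), Wdfy1 (17.88 CPM, old ND replicate 4, high), Inhba (19.69 CPM, old ND replicate 4, low), Zap70 (8.135 CPM, young ND replicate 1, low), Igfbp4 (1177 CPM, young ND replicate 1, low, and 1574 CPM, old ND replicate 5, high), Pck1 (3387 CPM, old ND replicate 5, high) and Ide (182.1 CPM, old ND replicate 2, high).

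By an interaction test the log2 fold change of old over young was more positive on HFD than on ND in Rhbg (2.30 on the log2 scale), Lad1 (2.00), Tspyl4 (1.58), Grk5 (1.56), Ablim3 (1.49), Ifi27 (1.27), Manf (0.97) and Dtx4 (0.74), and more negative in Pcdh17 (-1.19), Inhba (-0.98), Rnf145 (-0.82) and Atp1b1 (-0.74). In size the age difference on HFD was the smaller for Lad1, Grk5, Rhbg, Manf, Pcdh17, Inhba and Rnf145. The causes of these differences were not tested.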

How the results depend on the processing

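Of 1421 genes called by edgeR, 1416 were also called the same way by DESeq2 and 1413 by limma voom, which called more genes in all (2679, with 1502 higher and 1177 lower, for voom, and 822 lower for DESeq2). The replicate numbers did not pair the libraries, since deviations of same-numbered libraries correlated by 0.0392, 0.0445, -0.0643 and 0.0344 and 1 of 4 young libraries correlated best with its own number. The fit with the replicate block also left out old ND replicate 5, and it called 2442 genes, 1462 higher and 980 lower. Without that library and without a block 2704 were called. With a 2-fold minimum 395 remained, 348 higher and 47 lower. Leaving out 1 library gave between 438 and 2704 calls in all, 279 to 1595 higher and 158 to 1109 lower, and 362 genes were called without any 1 library. Scaling moved the share of calls that were higher from 62.9% to 71.1% (upper quartile). The interaction was called for 195 genes by DESeq2. Component 1 held 55.9% of the variance over the 500 most variable genes. Of 183 called genes followed by name, none reversed, 115 kept the call in every setting that tested them with all libraries, the replicate block aside, and 69 without any 1 library. With the block 161 of 180 were still called and in the fit to all 18 libraries 130. Among genes not called, the log2 fold change changed sign when single libraries were left out, spanning -0.21 to 0.26 for Fasn, -0.02 to 0.05 for C3 -0.33 to 0.18 for Scd1, which also stood at 0.12 with voom and 0.19 with the block, -0.15 to 0.00 for Zap70, -0.09 to 0.15 for Col14a1, -0.19 to 0.04 for Spp1, -0.30 to 0.00 for Acot4, -0.70 to 0.05 for Cyp4a14, -0.03 to 0.02 for Slc27a5 and -0.36 to 0.18 for Pck1. Other scalings, filters and the fit to all 18 libraries turned Slc27a5 to 0.00, 0.01 and 0.03 and Pck1 to 0.00, 0.01 and 0.02. Causes were not tested.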
